A study of Homo sapiens with 6 samples.

Results

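The clustered histone genes were examined as the rows of the expression table whose gene name starts with HIST followed by a digit. This rule took 71 of the 20030 genes of the table. By protein they comprised 6 genes of the linker histone H1, 17 of H2A, 18 of H2B, 15 of H3 and 15 of H4. By locus, 55 belonged to the large HIST1 cluster on chromosome 6, 12 to HIST2 and 3 to HIST3, both on chromosome 1, and 1 to HIST4 on chromosome 12.

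Histone proteins package DNA into nucleosomes, in which H3 and H4 form the core, H2A and H2B dimers complete it, and H1 binds the linker DNA. The clustered genes are mostly transcribed during S phase, and their main mRNAs end in a conserved stem-loop instead of a poly(A) tail. Some of these genes also make polyadenylated transcripts that run past the stem-loop, which are known from cells that have left the cell cycle or differentiate. Libraries selected for poly(A) RNA, as here, capture mainly this polyadenylated fraction, so the values below do not measure the total histone mRNA of the cells.

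The cells were HepG2, a hepatoma line of long standing, transduced with lentivirus in both groups and selected with puromycin. In sh-ctrl (3 libraries) the virus carried a control shRNA. In sh-KIF11 (3 libraries) it carried a shRNA that targets KIF11, a kinesin motor of the mitotic spindle. These are stable knockdown lines of 1 cell line, and how many clones each holds is not given in the sources used here. No source used here says that the libraries of a group came from separate cultures, so p-values measure only the spread between these libraries, which may be technical. Read counts totalled 18167773 to 19583282 per library. Throughout, counts are listed for sh-ctrl 1, 2 and 3 and then, after the word against, for sh-KIF11 1, 2 and 3. KIF11 was counted 1976, 2088 and 2039 times against 1448, 1478 and 1240 times, a log2 fold change of -0.75 (SE 0.0573, adjusted p = 4.22e-15 by edgeR's quasi-likelihood test).

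The groups differed across the whole transcriptome. In that test, 69.1% of the 12369 genes tested had an adjusted p under 0.05, 34.4% with higher and 34.7% with lower values after knockdown. With library totals alone in place of TMM these shares were 53.5% and 19.2%. Levels were scaled by TMM, the edgeR normalization, to counts per 1000000 (CPM). Summed CPM of 8 hepatocyte markers ranged from 27788 to 28925 among sh-ctrl and from 13442 to 14530 among sh-KIF11 libraries, and 7 of the 8 were lower. Summed CPM of 8 markers of other cell types ranged from 205 to 232 against 658 to 775, mostly through the biliary keratin KRT19. Of these, KRT19 and VWF were higher, CD68 was lower, PECAM1 was not called, DCN was at 0 in every library, and COL1A1, COL3A1 and PTPRC had at most 6 counts in any library. Their part in the values below was not tested. In bulk RNA, a change in the share of cells that express a gene and a change in its RNA per cell cannot be told apart.

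The stem-loops of 4 members are shown because they mark the end of the usual histone mRNA. Where many annotated bases follow, the annotation holds a transcript that runs past that end. The hairpin is in capitals, the sequences were read 5′ to 3′ from GENCODE release 29 transcripts (GRCh38), and RNA has U for T.
HIST1H2AC: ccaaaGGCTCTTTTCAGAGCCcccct
HIST2H2BE: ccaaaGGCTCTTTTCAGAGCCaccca
HIST1H2AI: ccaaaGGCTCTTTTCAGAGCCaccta
HIST1H4H: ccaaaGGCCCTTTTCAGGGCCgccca
The stem-loop of HIST1H2AC starts 43 bases after the stop codon and is followed by 1114 further annotated bases, and that of HIST2H2BE by 1729. In HIST1H2AI only 39 bases follow. In HIST1H4H the hairpin has the form seen in H4 genes, and 630 bases follow. A stem-loop was found in the annotated 3′ ends of 23 of the 71 members, of which 16 had 100 or more bases after it. Only these hairpin letters were searched: GGC, then C or T, then CTTTTCAG, then A or G, then GCC. Many of the other entries hold little beyond the coding part. Others, such as HIST1H3E with 1908 annotated bases after the stop codon, had no match to these exact letters. A missing match thus says nothing of the gene.

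Promoters are shown for 3 loci whose genes changed, as described below, and for HIST1H1C, the most counted of the clustered H1 genes. Each run holds 250 bases before and 50 after the RefSeq start (GRCh38.p14) on the gene's own strand. Capitals mark the octamer ATTTGCAT, bound by POU2F1, the CCAAT box and the TATA box TATAAA, each searched on both strands, so that ATGCAAAT, ATTGG and TTTATA are the same motifs read backwards.
HIST2H2BE, chr1:149886633-149886932, minus strand: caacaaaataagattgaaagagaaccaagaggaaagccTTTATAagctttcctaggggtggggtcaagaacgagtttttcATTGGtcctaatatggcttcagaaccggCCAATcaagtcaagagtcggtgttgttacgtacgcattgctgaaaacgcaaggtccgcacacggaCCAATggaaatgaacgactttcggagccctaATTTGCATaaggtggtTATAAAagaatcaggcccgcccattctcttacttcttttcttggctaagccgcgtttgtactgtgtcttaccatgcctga
HIST1H2BC, chr6:26123877-26124176, minus strand: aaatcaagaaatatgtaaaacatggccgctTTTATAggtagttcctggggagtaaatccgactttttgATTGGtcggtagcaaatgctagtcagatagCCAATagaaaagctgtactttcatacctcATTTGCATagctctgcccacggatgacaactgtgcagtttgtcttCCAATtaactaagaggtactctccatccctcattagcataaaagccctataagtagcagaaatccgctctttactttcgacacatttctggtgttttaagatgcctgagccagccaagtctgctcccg
HIST1H2BK, chr6:27146809-27147108, minus strand: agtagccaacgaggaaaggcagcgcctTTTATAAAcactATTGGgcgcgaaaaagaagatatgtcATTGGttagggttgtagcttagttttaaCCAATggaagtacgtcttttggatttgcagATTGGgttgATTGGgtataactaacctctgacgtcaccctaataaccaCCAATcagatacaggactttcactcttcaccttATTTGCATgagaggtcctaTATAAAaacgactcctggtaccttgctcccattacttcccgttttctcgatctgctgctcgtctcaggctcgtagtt
HIST1H1C, chr6:26056421-26056720, minus strand: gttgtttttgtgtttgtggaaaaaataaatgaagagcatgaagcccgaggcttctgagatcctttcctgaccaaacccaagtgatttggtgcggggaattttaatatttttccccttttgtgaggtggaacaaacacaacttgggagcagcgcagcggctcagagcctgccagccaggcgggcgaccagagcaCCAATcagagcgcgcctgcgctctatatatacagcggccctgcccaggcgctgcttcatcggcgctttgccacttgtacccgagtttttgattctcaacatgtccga
In HIST1H2BK the letters of TTTATA and TATAAA overlap at one place, and the more upstream of its RefSeq starts is shown. The octamer lies 46 to 39 bases before the start of both HIST2H2BE and HIST1H2BK, and 123 to 116 bases before that of HIST1H2BC. HIST1H1C has no octamer in this window.

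Promoter sequences were found for 66 of the 71 members. The octamer was present in 14 of 18 H2B genes (77.8%) and in 11 of 16 H2A genes (68.8%), against 1.77% of the 35116 promoters of the table. It was present in 1 of 13 H3 genes and in 0 of 6 H1 and 0 of 13 H4 genes. CCAAT was present in all promoters found for H1, H2A, H2B and H3 genes but in 3 of 13 H4 genes (23.1%), against 34.6% of all promoters. TATAAA was found in 50% of the H1, 75% of the H2A, 66.7% of the H2B, 84.6% of the H3 and 53.8% of the H4 genes, against 11.5% of all promoters. A match is a match of letters, not a measured binding site.

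Most clustered histone genes were scarcely counted. Of the 71 members, 21 had no count in any of the 6 libraries, 35 had counts but did not pass edgeR's filter on low counts, and 15 were tested. A count of 3 corresponds to 0.145 to 0.178 CPM in these libraries. The tested members were 1 H1, 5 H2A, 7 H2B and 2 H3 genes, and no H4 gene passed the filter. These 15 took 89% of all counts of the 71 members, and HIST1H2BK, HIST1H1C and HIST1H2AC alone took 57.4%. In present RefSeq naming these are H2BC12, H1-2 and H2AC6, and HIST2H2BE and HIST2H2AC are H2BC21 and H2AC20. Among the tested members, 8 were higher in sh-KIF11, 2 were lower and 5 were not called, beside 34.4% and 34.7% of all tested genes. With library totals alone, 10 were higher and 1 was lower, beside 53.5% and 19.2% of all genes. Groups were without overlap in 11 of the 15, beside 71.2% of all tested genes. A member that passed the filter only through the group in which it was high had to differ, so these counts describe the tested members and not the family.

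**Figure D1:**
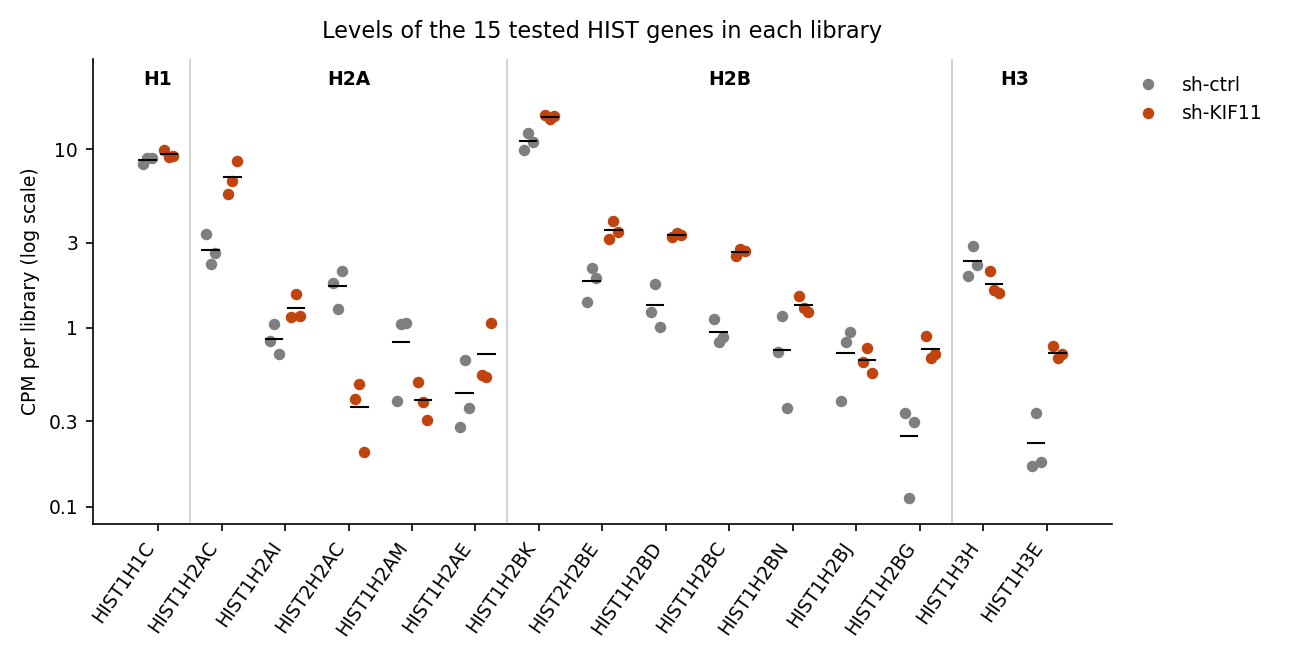
CPM of each tested HIST gene in each library on a log scale, ordered by histone type and mean level. Grey points are sh-ctrl, orange points are sh-KIF11 and lines are group means. Of the 7 H2B genes, 6 have all sh-KIF11 points above all sh-ctrl points, whereas HIST2H2AC has them all below. Over the whole transcriptome, groups were without overlap in 71.2% of tested genes.

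The H2B genes held the largest number of changes, and also the most tested members. Among the 7 tested H2B genes, 6 were higher in sh-KIF11 and none was lower, beside 34.4% and 34.7% of all tested genes. Log2 fold changes ranged from 0.46 to 1.60 among the 6. HIST1H2BK was the most counted of the clustered histone genes, with 176, 223 and 186 counts against 312, 307 and 304. Every sh-KIF11 library lay above every sh-ctrl library, and the gene had the smallest of the 6 changes at a log2 fold change of 0.46 (SE 0.103, adjusted p = 0.000134). HIST2H2BE, which lies in the HIST2 cluster on chromosome 1, was counted 25, 39 and 32 times against 63, 82 and 68 times. Its mean level was 1.82 ± 0.385 CPM (SD, n = 3) against 3.52 ± 0.415 CPM, and its log2 fold change was 0.95 (SE 0.228, adjusted p = 0.000335).

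HIST1H2BD and HIST1H2BC, which lie near each other in HIST1, changed by more. HIST1H2BD had 22, 32 and 17 counts against 65, 70 and 65, a log2 fold change of 1.29 (SE 0.245, adjusted p = 1.24e-05). HIST1H2BC had 20, 15 and 15 counts against 51, 57 and 53, a log2 fold change of 1.48 (SE 0.271, adjusted p = 6.71e-06). In both genes the sh-KIF11 libraries were close to each other and well above the sh-ctrl libraries. HIST1H2BD overlaps the pseudogene LARP1P1 on its own strand and AL353759.1 on the other, and whether counting used the strand is not given in the sources used here. HIST1H2BG was near the detection limit in sh-ctrl and was counted 6, 2 and 5 times against 18, 14 and 14 times. Its log2 fold change was 1.60 (SE 0.493, adjusted p = 0.00418), the highest of the H2B genes with the widest interval among them, from 0.60 to 2.60.

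The remaining H2B genes were less certain. HIST1H2BN had 13, 21 and 6 counts against 30, 27 and 24, so that the groups did not overlap, with a log2 fold change of 0.82 (SE 0.351, adjusted p = 0.0365). This call was lost without sh-ctrl 1 (adjusted p = 0.0752), sh-ctrl 3 (0.212), sh-KIF11 1 (0.104) or sh-KIF11 2 (0.0612), in DESeq2 (0.0878) and in limma on the deposited FPKM values, which are fragments scaled to transcript length and library size (0.0627 after adding 1 and 0.0663 after adding 0.1 before taking log2), over a range of 0.00558 to 0.212 across all settings. The gene also overlaps HIST1H2AL on its own strand and HIST1H2AK on the other in the annotation. HIST1H2BJ, named here after its values were seen, had 7, 15 and 16 counts against 13, 16 and 11. Its groups overlapped, and its log2 fold change of -0.12 had a 95% interval from -0.94 to 0.69.

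The tested H2A genes held calls in both directions. Of the 5 tested, HIST1H2AC was higher, HIST2H2AC and HIST1H2AM were lower, and HIST1H2AE and HIST1H2AI were not called. These are 1 of 5 higher and 2 of 5 lower, near the 34.4% and 34.7% of all tested genes. HIST1H2AC was counted 60, 41 and 44 times against 113, 138 and 169 times. Its mean level was 2.75 ± 0.560 CPM against 6.96 ± 1.49 CPM, with a log2 fold change of 1.34 (SE 0.184, adjusted p = 2.86e-08), the smallest adjusted p of the family. It held 34.1% of the counts of clustered H2A genes in sh-ctrl and 62.8% in sh-KIF11.

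HIST2H2AC went the other way. It was counted 32, 23 and 35 times against 8, 10 and 4 times, without overlap. Its mean level was 1.71 ± 0.406 CPM against 0.362 ± 0.144 CPM, and its log2 fold change of -2.21 (SE 0.378, adjusted p = 2.15e-06) was the largest in size among the 15. Its share of the counts of clustered H2A genes was 21.2% in sh-ctrl and 3.29% in sh-KIF11. HIST1H2AM had 7, 19 and 18 counts against 10, 8 and 6, so that sh-ctrl 1 lay among the sh-KIF11 libraries, and its log2 fold change was -1.06 (SE 0.445, adjusted p = 0.0329). That call was lost without sh-ctrl 2 (adjusted p = 0.137), sh-ctrl 3 (0.121), sh-KIF11 2 (0.0729) or sh-KIF11 3 (0.106), as well as with library totals alone, in DESeq2 and in limma, and its adjusted p ranged from 0.0059 to 0.137 across settings. HIST1H3J overlaps HIST1H2AM on the same strand and shares 80.7% of its 150-base coding windows, the length of a read, so its counts are uncertain.

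HIST1H2AE had 5, 12 and 6 counts against 11, 11 and 21, with a log2 fold change of 0.70 and a 95% interval from -0.22 to 1.62 (adjusted p = 0.169). HIST1H2AI had 15, 19 and 12 counts against 23, 32 and 23, which did not overlap, with a log2 fold change of 0.56 and an interval from -0.10 to 1.22 (adjusted p = 0.124). HIST1H2AI shares 75% of its 150-base coding windows with HIST1H2AJ. Neither gene passed the threshold in edgeR with the main scaling, and both intervals include changes as large as that of HIST2H2BE. Both calls depended on the setting. HIST1H2AI was higher with library totals alone (log2 fold change 0.79, adjusted p = 0.0283) and in both limma fits on FPKM (adjusted p = 0.0214 and 0.0253), and HIST1H2AE was higher in both limma fits (adjusted p = 0.0298 and 0.0248).

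Among the linker histones, HIST1H1C held 97% of the H1 counts of sh-ctrl and 97.8% of those of sh-KIF11. It was counted 148, 161 and 151 times against 198, 188 and 181 times. Its scaled levels were 8.72 ± 0.367 CPM and 9.38 ± 0.429 CPM, with a log2 fold change of 0.10 (95% interval from -0.13 to 0.34, adjusted p = 0.438). The call depended on the setting. With library totals alone the log2 fold change was 0.34 (adjusted p = 0.0104), with the median of all tested genes at 0.24. In limma on FPKM it was 0.28 (adjusted p = 0.000914) after adding 1 and 0.30 (adjusted p = 0.000804) after adding 0.1, with the medians of all tested genes at 0.12 and 0.17.

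The tested H3 genes were HIST1H3E and HIST1H3H. HIST1H3E was counted 3, 6 and 3 times against 16, 14 and 14 times, a log2 fold change of 1.65 (SE 0.501, adjusted p = 0.00364). Its groups did not overlap, although the sh-ctrl counts were at or near the floor of 3. On the FPKM values HIST1H3E did not pass in limma, with adjusted p = 0.0925 after adding 1 and 0.0892 after adding 0.1. HIST1H3H held 57.6% of the counts of clustered H3 genes in sh-ctrl and 56.3% in sh-KIF11. It had 35, 52 and 38 counts against 42, 34 and 31. Its groups overlapped in CPM, and its log2 fold change of -0.42 had an interval from -0.92 to 0.08 (adjusted p = 0.131).

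**Figure D2:**
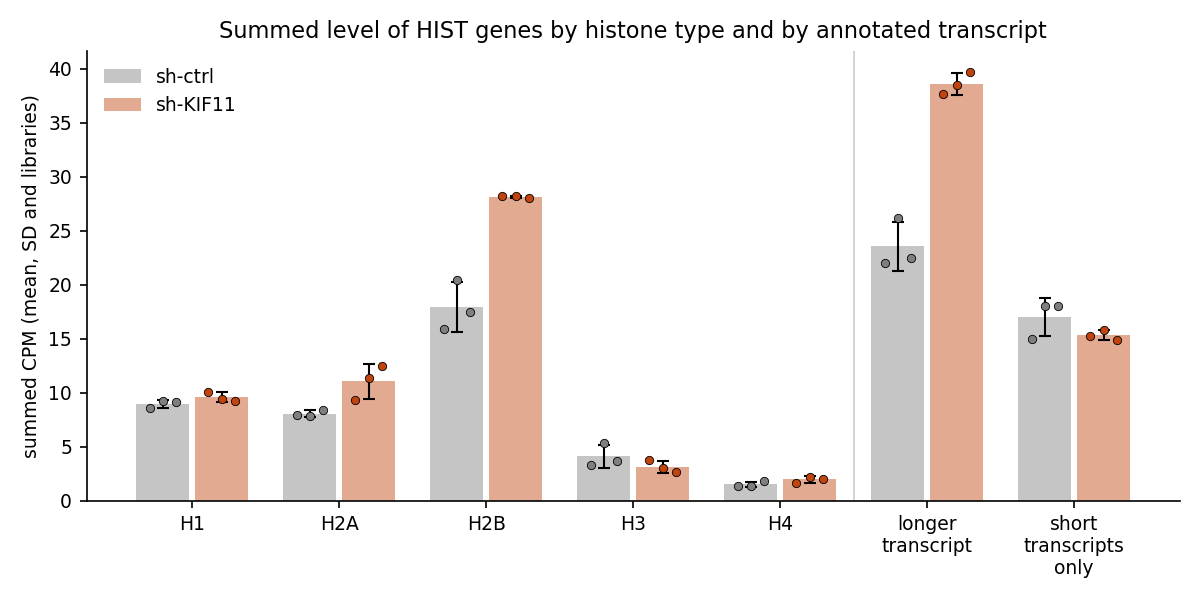
Summed CPM of all members of each histone type (left) and of members with a longer annotated transcript or with short annotated transcripts only (right). Bars are group means, error bars are SD, points are the 3 libraries of each group. Group means are 17.9 and 28.2 CPM for H2B and 23.6 and 38.6 CPM for the genes with a longer transcript, with no overlap of libraries in either. The longer class was chosen after the values were seen and holds the 8 genes called higher.

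Summed over all 71 members, counted or not, the scaled level was 37.1, 44.2 and 40.5 CPM in sh-ctrl and 53, 54.3 and 54.5 CPM in sh-KIF11, a ratio of means of 1.33. The groups did not overlap. H2B genes accounted for most of this, with 17.9 ± 2.32 CPM against 28.2 ± 0.0994 CPM and a ratio of 1.57. H2A genes summed to 8.06 ± 0.305 CPM against 11.1 ± 1.6 CPM, a ratio of 1.37, and H1 genes to 8.99 ± 0.358 against 9.59 ± 0.421 CPM, a ratio of 1.07. The libraries did not overlap in H2B, H2A and H1, although the highest sh-ctrl sum of H1 was 9.25 and the lowest sh-KIF11 sum 9.28 CPM.

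The H3 and H4 sums overlapped between the groups. H3 genes gave 3.31, 5.32 and 3.67 CPM in sh-ctrl and 3.74, 3 and 2.69 CPM in sh-KIF11. H4 genes gave 1.40, 1.33 and 1.78 CPM against 1.64, 2.22 and 2.03 CPM. Group means were 4.1 ± 1.07 against 3.14 ± 0.54 CPM for H3 and 1.5 ± 0.24 against 1.97 ± 0.294 CPM for H4. Neither sum was tested. By locus, the HIST1 sum was 36.7 ± 3.29 CPM against 49.3 ± 0.929 CPM without overlap, whereas HIST2 gave 3.76 ± 0.460 against 4.03 ± 0.488 CPM, in which HIST2H2BE and HIST2H2AC moved in opposite directions.

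Levels of different genes were compared on the deposited FPKM values, which account for transcript length. In sh-ctrl the order was HIST1H1C at 12 ± 0.444 FPKM, HIST1H2BK at 9.25 ± 1.20 and HIST1H2AC at 5.31 ± 1.25. In sh-KIF11 the same 3 genes stood at 14.8 ± 0.668, 15.3 ± 0.400 and 16.2 ± 2.44 FPKM, which do not differ from each other beyond their spread. In sh-ctrl HIST1H2AC stood below HIST1H1C by more than the spread between libraries, and whether that gap differed between the groups was not tested. HIST2H2AC, next in sh-ctrl at 3.66 ± 0.850 FPKM, was at 0.855 ± 0.629 FPKM in sh-KIF11.

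The members were also divided by annotation, using gene span and bases after the stop codon. This division was chosen after the values were seen, and under it the calls differed between settings. A member was taken to have a longer annotated transcript by either of these rules. By the first, its RefSeq gene spans at least 1000 bases of the genome, any introns included, which is not a transcript length. By the second, a GENCODE coding transcript continues for at least 300 bases after the stop codon. Of the 71 members, 25 met this definition, and 10 of them were tested. Of these 10, 8 were higher and none was lower, beside 34.4% and 34.7% of all tested genes, and those not called were HIST1H2BJ and HIST1H3H. Of the 8, HIST1H2BG and HIST1H3E exceeded 10 counts only in sh-KIF11, so their direction was tied to passing the filter. Of the 46 members with short annotated transcripts only, 5 were tested, none was higher and HIST2H2AC and HIST1H2AM were lower. HIST2H2AC exceeded 10 counts only in sh-ctrl, so its direction was likewise tied to the filter. In GENCODE, HIST2H2AC, HIST1H2AM and HIST1H1C hold 0 bases after the stop codon, so their place in this class may reflect missing annotation. The 8 genes called higher in edgeR with the main scaling all met this definition. Among them were HIST1H2AC with 1173 and HIST1H3E with 1908 annotated bases after the stop codon. HIST1H2BC and HIST1H2BK met it by genomic span alone (10757 and 8566 bases), with 272 and 0 annotated bases after the stop codon. Other settings also called genes with short transcripts higher. Under library totals alone these were 2 of 10, HIST1H1C and HIST1H2AI. In both limma fits on FPKM they were 3 of 9, HIST1H1C, HIST1H2AE and HIST1H2AI, so that 3 of 5 tested genes with short transcripts and 6 of 10 with longer ones were higher, beside 45.6% and 45.8% of all genes. With no low-count filter they were 2 of 10, HIST4H4 and HIST1H2AK. HIST2H2AC was lower in each of these settings, and no gene with a longer transcript was.

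Summed over all members of a class, tested or not, the values were as follows. Members with a longer annotated transcript summed to 22, 26.2 and 22.5 CPM in sh-ctrl and to 37.7, 38.5 and 39.7 CPM in sh-KIF11, a ratio of 1.64 without overlap. The class holds the 8 genes called higher, so this sum largely restates their calls. Its untested members alone summed to 1.46, 1.5 and 1.07 CPM against 1.64, 1.79 and 1.47 CPM, which overlapped. HIST1H2BK, longer by genomic span alone, held 11.1 of the class mean of 23.6 CPM in sh-ctrl and 15.3 of 38.6 CPM in sh-KIF11. Members with short transcripts only summed to 15, 18 and 18 CPM against 15.3, 15.8 and 14.9 CPM, a ratio of 0.901 with overlap. With library totals alone the latter sums were 13.9, 16.6 and 16.5 CPM against 16.5, 17.1 and 16.1 CPM, which also overlapped. Under the main scaling, untested members with short transcripts only summed to 3.42, 5.04 and 4.8 CPM against 2.84, 3.77 and 2.94 CPM, again with overlap. By RefSeq span alone, 5 of the genes called higher counted as longer, and none of those called lower did. By GENCODE bases after the stop codon alone, 6 did, again with none of those called lower. HIST1H2BC and HIST1H2BK then counted as short although called higher.

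**Figure D3:**
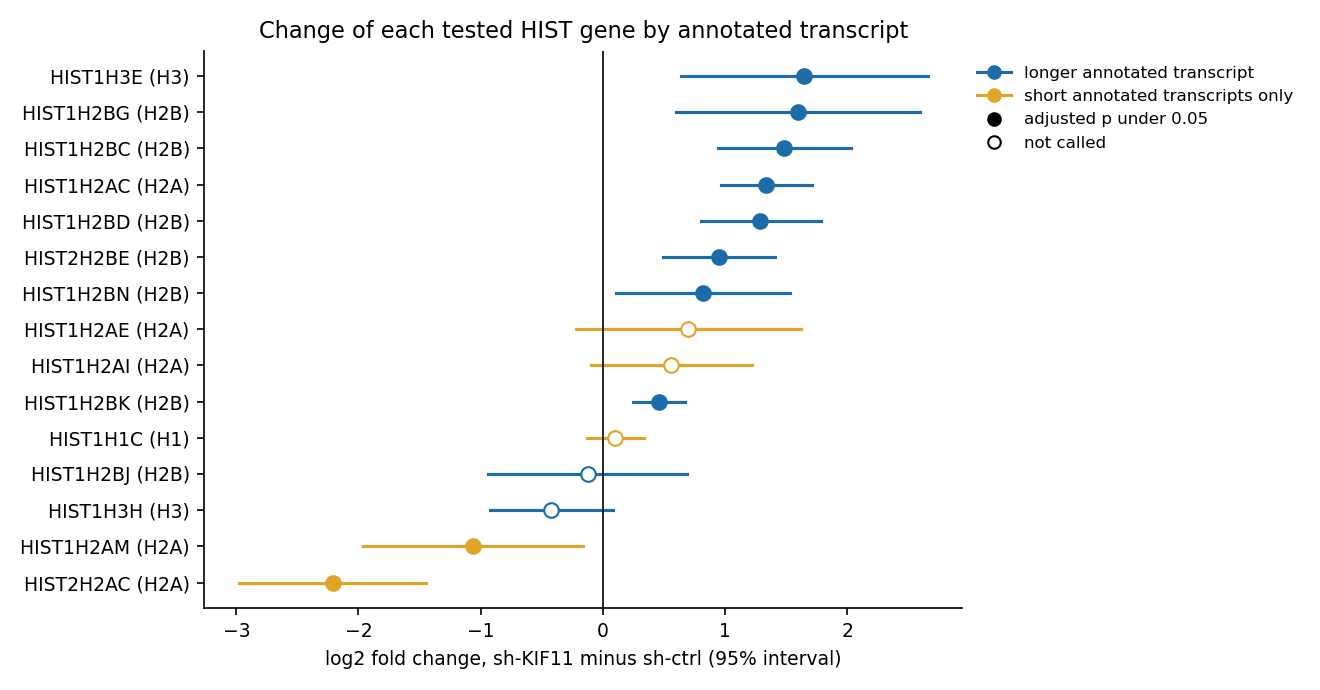
Log2 fold change (sh-KIF11 minus sh-ctrl, with 95% interval) of each tested HIST gene. Blue marks a longer annotated transcript by genomic span or by bases after the stop codon, and yellow marks short transcripts only. HIST1H2BC and HIST1H2BK are blue by genomic span alone. Filled points have an adjusted p under 0.05. In this edgeR fit all filled points above 0 are blue and both filled points below 0 are yellow, whereas HIST1H1C and HIST1H2AI, open and yellow here, were called higher in other settings.

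Many H2A and H2B genes lie head to head, transcribed away from each other from a shared promoter region. Starts within 500 bases on opposite strands were found for 13 pairs of members. Both genes were called in 2 of them, chosen here for that reason. Apart from HIST1H2BG with HIST1H2AE, every other pair held a gene that was not tested. Among all tested genes, 69.1% were called. HIST1H2BC and HIST1H2AC start 246 bases apart at chr6:26123926-26124172, and the octamer at chr6:26124042-26124049 lies within both of their promoter windows. Both genes were higher. The ratio of HIST1H2BC to HIST1H2AC counts was 0.333, 0.366 and 0.341 against 0.451, 0.413 and 0.314, which overlapped.

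HIST2H2BE and HIST2H2AC start 236 bases apart at chr1:149886682-149886918 and share the octamer at chr1:149886721-149886728, which lies 46 to 39 bases before HIST2H2BE and 197 to 190 bases before HIST2H2AC. In this pair HIST2H2BE was higher and HIST2H2AC lower. The ratio of HIST2H2BE to HIST2H2AC counts was 0.781, 1.7 and 0.914 against 7.88, 8.2 and 17. The ratios of the groups did not overlap, which follows from the calls of both genes by which the pair was chosen, so no test is given. A ratio within a library does not depend on how the libraries were scaled. HIST2H2BE is among the members with a longer annotated transcript and HIST2H2AC is not. HIST1H2BC and HIST1H2AC both are, HIST1H2BC by genomic span alone.

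**Figure D4:**
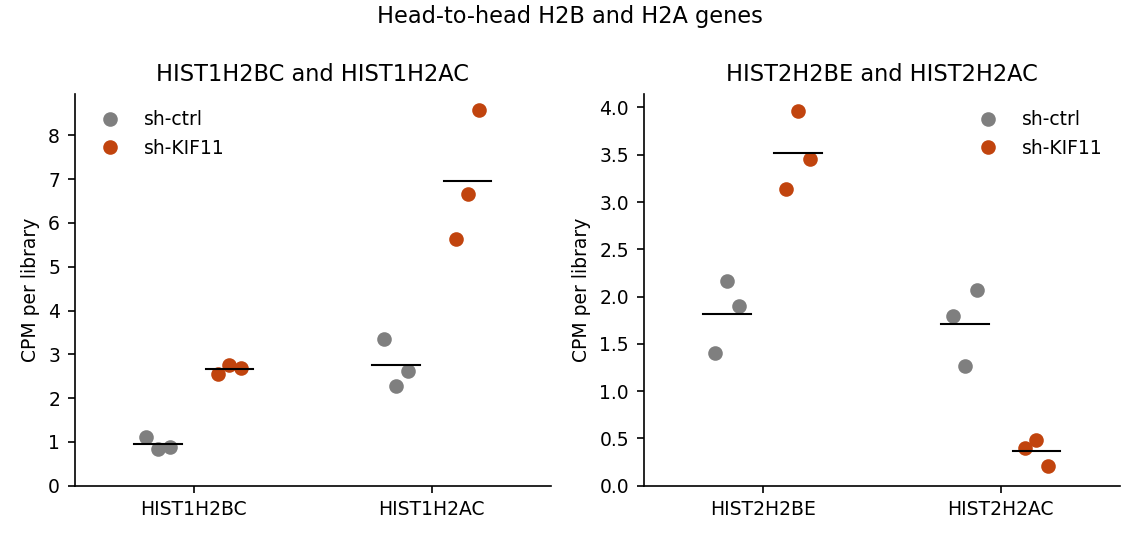
CPM of each gene of the head-to-head pairs HIST1H2BC with HIST1H2AC (left) and HIST2H2BE with HIST2H2AC (right) in each library, with group means as lines. Both genes rise in the left pair, and in the right pair HIST2H2BE rises while HIST2H2AC falls from a mean of 1.71 to 0.362 CPM.

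In 4 further pairs 1 gene was called. HIST1H2BG was higher while its partner HIST1H2AE was not called, and HIST1H2BK was higher with 1508 counts over the 6 libraries while HIST1H2AH had 4. HIST1H2BN was higher beside HIST1H2AK, which had 24 counts in all and was not tested, and HIST1H2AM was lower beside HIST1H2BO, which had 19. Presence of the octamer did not separate these genes by direction. Among the H2A and H2B genes with a promoter sequence, it was found in 5 of 7 called higher, 2 of 2 called lower, 2 of 3 not called and 16 of 22 not tested.

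The 56 members that were not tested summed to 4.88, 6.54 and 5.87 CPM in sh-ctrl and 4.49, 5.56 and 4.41 CPM in sh-KIF11, which overlapped. The groups were apart in 9 of the 35 with any count, beside 18.3% of all untested genes with any count. The genes named next were chosen after their values were seen. HIST1H3B had 6, 10 and 4 counts against 1, 1 and 2, HIST1H3C had 10, 17 and 16 against 8, 9 and 5, and HIST1H2AJ had 10, 13 and 14 against 6, 7 and 4. When the low-count filter was dropped these 3 genes, all with short annotated transcripts only, were lower (adjusted p = 0.0124, 0.0383 and 0.0371), beside 27.2% of all genes lower and 27.7% higher in that setting. HIST1H2BO had 2, 8 and 5 counts against 2, 0 and 2 (adjusted p = 0.0593).

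Of the untested members, 2 were higher without the filter, both short by the definition above. In HIST4H4, however, 169 annotated bases follow the stem-loop. HIST4H4 had 0, 6 and 0 counts against 10, 16 and 7 (adjusted p = 0.00589), and HIST1H2AK was higher as well (adjusted p = 0.0439), although all of its 150-base coding windows lie within the HIST1H2BN transcript. HIST1H4H, the H4 gene whose stem-loop is shown above, had 6, 2 and 2 counts against 11, 11 and 9 (adjusted p = 0.0626). No H4 gene had a mean above 0.367 CPM in sh-ctrl, and differences in H4 genes were for the most part not detectable at this depth.

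The genes that transcribe, process and degrade histone mRNA were followed through fixed lists. Of 3 transcription factors, NPAT, the coactivator of histone loci in S phase, was higher with 335, 323 and 288 counts against 495, 601 and 470 (log2 fold change 0.53, SE 0.0873, adjusted p = 1.15e-06). POU2F1, which binds the octamer, had a log2 fold change of -0.15 (adjusted p = 0.0566), and HINFP, a factor for H4 genes, one of 0.08 (adjusted p = 0.472).

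Of 18 genes of histone mRNA 3′ end processing, 12 were lower, 1 was higher and 5 were not called, beside 34.7% and 34.4% of all tested genes, with a median log2 fold change of -0.29 against 0.00 for all tested genes. The U7 snRNP proteins LSM10 and LSM11 were both lower. LSM10 had 1054, 973 and 1051 counts against 822, 827 and 807 (log2 fold change -0.52), and LSM11 had 310, 345 and 402 against 273, 256 and 247 (log2 fold change -0.65). ZNF473, a zinc finger protein of the U7 complex, was lower by a log2 fold change of -0.56 (adjusted p = 3.35e-07), whereas CASP8AP2, the scaffold protein known as FLASH, was higher by 0.54 (adjusted p = 6.88e-08). SLBP, which binds the stem-loop, had 1797, 1887 and 1936 counts against 1842, 1818 and 1721, a log2 fold change of -0.26 (SE 0.0550, adjusted p = 5.95e-05). SLBP did not pass under scaling by library totals, at -0.03 (adjusted p = 0.627), nor in limma on FPKM, at -0.08 (adjusted p = 0.194 and 0.193). Scaled by library totals, 8 of the 18 were lower and 5 higher, beside 19.2% and 53.5% of all genes. Among the 12 lower genes, SNRPB, SNRPD3, SNRPF and SNRPG encode Sm proteins, which also serve in the spliceosome.

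Of 6 genes of histone mRNA translation and decay, ZCCHC6 and ZCCHC11 were higher, MIF4GD and UPF1 were lower, and ERI1 and LSM1 were not called. These are 2 of 6 in each direction, near the 34.4% and 34.7% of all tested genes. ZCCHC6, a terminal uridylyl transferase, had 681, 811 and 692 counts against 1320, 1447 and 1379 (log2 fold change 0.73, adjusted p = 8.28e-13), and ZCCHC11, its relative, a log2 fold change of 0.22 (adjusted p = 0.00141). UPF1 and MIF4GD had log2 fold changes of -0.18 and -0.27 (adjusted p = 0.00307 and 0.0118). Scaled by library totals, 4 of the 6 were higher and none was lower, beside 53.5% and 19.2% of all genes.

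The replication-independent histones, which are expressed through the cell cycle mainly from polyadenylated mRNAs of genes outside the clusters, were mostly lower. H2AFX is known to make a stem-loop mRNA as well. Of 12, 9 were lower, H2AFY2 was higher (log2 fold change 0.64, adjusted p = 3.66e-11), and H3F3B and H3F3C were not called, with a median log2 fold change of -0.31. Of all tested genes 34.7% were lower and 34.4% higher. With library totals alone, 5 were lower and 2 higher, beside 19.2% and 53.5%. H1FX had 3266, 3345 and 2872 counts against 1940, 1667 and 1575, a log2 fold change of -1.07 (SE 0.0587), and H1F0 one of -0.76 (SE 0.0470). CENPA, the H3 variant of centromeres, had 769, 904 and 869 counts against 571, 523 and 502 (log2 fold change -0.87). H2AFX, the H2A variant phosphorylated at DNA breaks, and H2AFZ had log2 fold changes of -0.84 and -0.56, and in all of these genes the groups were fully apart.

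Calls for the H3.3 genes and for H2AFJ depended on scaling. H3F3A had 2692, 2775 and 2865 counts against 2644, 2891 and 2732, with a log2 fold change of -0.21 (adjusted p = 0.000512) that turned to 0.02 (adjusted p = 0.733) with library totals alone. H3F3B had a log2 fold change of 0.03 (adjusted p = 0.663), or 0.26 (adjusted p = 1.37e-05) with library totals. H2AFJ had -0.32 (adjusted p = 0.00434), or -0.09 (adjusted p = 0.413) with library totals. In limma on FPKM, after adding 1, these genes had adjusted p = 0.915, 0.00389 and 0.191, in the same order. The higher levels of 7 HIST H2A and H2B genes stood beside lower levels of H2AFX, H2AFZ, H1F0, H1FX and CENPA, which kept their calls under every setting.

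S-phase genes were lower for the most part. Of 20, 18 were lower, CCNE1 was higher and CCNE2 was not called, with a median log2 fold change of -0.43, beside 34.7% lower and 34.4% higher among all tested genes. Scaled by library totals, 13 were lower and 2 higher, beside 19.2% and 53.5%. RRM2, a subunit of ribonucleotide reductase, had 6271, 6981 and 6261 counts against 4478, 4535 and 4394 (log2 fold change -0.74, adjusted p = 5.09e-17). TYMS, which makes thymidylate, had a log2 fold change of -0.41 (adjusted p = 9.21e-10). PCNA, the sliding clamp, had -0.14 (adjusted p = 0.0146), which turned to 0.09 (adjusted p = 0.109) with library totals alone and to 0.04 in both limma fits. Of the cyclins of S-phase entry, CCNE1 had 0.33 (adjusted p = 5.88e-05), and CCNE2 had 0.21 (adjusted p = 0.147), or 0.45 (adjusted p = 0.00282) with library totals alone, and passed with upper-quartile scaling (0.0472) and in limma (0.0124 and 0.0213) as well. Whether the S-phase values and the HIST values are linked was not tested.

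**Figure D5:**
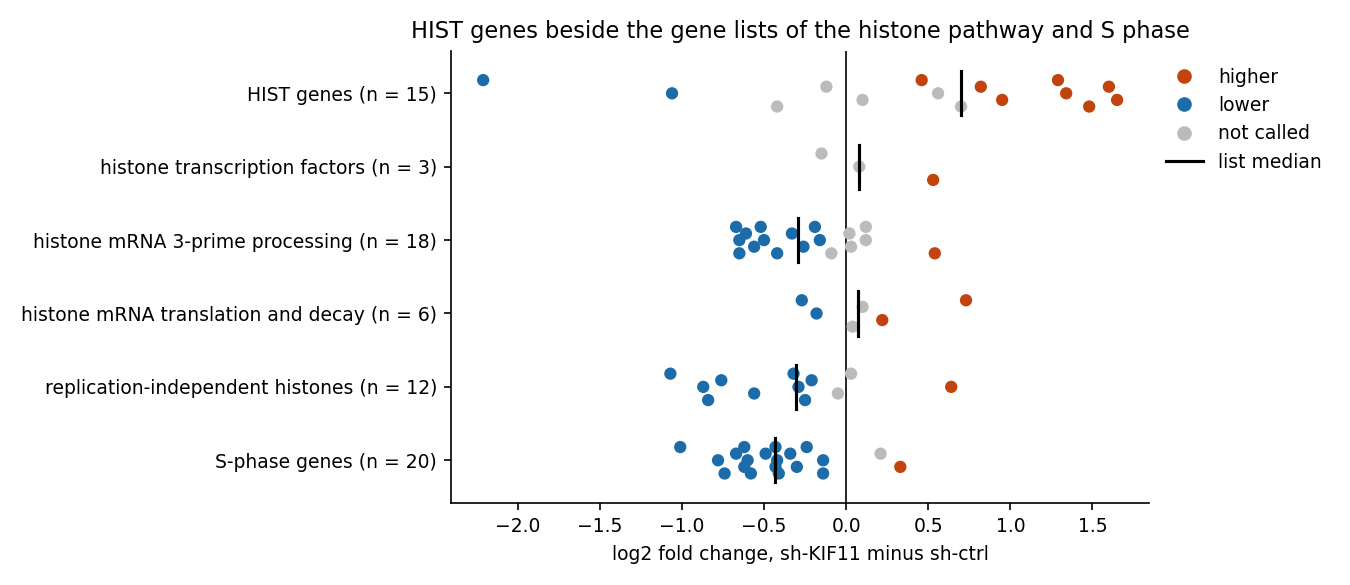
Log2 fold change (sh-KIF11 minus sh-ctrl) of the 15 tested HIST genes and of each tested gene of 5 lists, coloured by call, with the list median as a black line. The HIST median lies at 0.70, the medians of 3′ end processing, replication-independent histones and S-phase genes at -0.29, -0.31 and -0.43.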

How the data were processed

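Poly(A) RNA of 6 HepG2 libraries was made into strand-specific libraries and sequenced as 150-base paired reads. The authors deposited raw counts per gene and, in a second table, FPKM values per gene. The submitters' processing notes name HISAT2 2.1.0, HTSeq 0.9.1, Cufflinks 2.2.1, Trimmomatic, bcl2fastq 1.8.4, DESeq and GRCh38 (hg38), without their roles. The strand setting of the counting is not given in the sources used here. Columns named shRNA were taken as sh-KIF11, the only other shRNA that the labels name.

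Members and lists were chosen with earlier results of these data known. The counts were tested with edgeR 4.0.16 (R 4.3.3, TMM, filterByExpr, quasi-likelihood, two-sided, group as the only term) over 12369 genes, with Benjamini-Hochberg adjustment and a threshold of 0.05. The script was tested on simulated data. CPM values use TMM factors of 0.9216 to 0.9259 in sh-ctrl and 1.08 to 1.086 in sh-KIF11. Alternatives were other scalings and low-count filters, DESeq2 1.42.0, limma 3.58.1 on log2 FPKM, a replicate block and leaving out each library. Named members were, within each histone type, the 5 tested genes of highest mean CPM and each with an adjusted p under 0.05 and a log2 fold change of at least 1 in size. Named list genes were fixed likewise, and others were named after their values were seen. Annotation came from GENCODE release 29 and RefSeq, in which all 71 members were found. Rows of non-polyadenylated RNAs other than histones were searched by name and 0 were found, so that comparison was not made. Pairs of libraries within a group were not duplicates, with a chi-square of counts of 2.61 to 7.47 per degree of freedom.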

Additional observations from a re-analysis of the deposited data

How the results depend on the processing

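Across the alternatives, 441 of 488 values of single genes kept their direction and their side of the threshold. The number of HIST genes called higher, 8, became 10 with library totals alone and with no low-count filter, 9 in limma on FPKM (6 of the 8 and 3 others), 7 in DESeq2, 5 with at least 10 counts in every library, and 7 to 8 without any one library. The number called lower, 2, became 1 with library totals alone, in DESeq2, in both limma fits and without members that share 150-base coding windows, 5 with no filter, 0 with at least 10 counts in every library, and 1 to 2 without any one library. Under the count minimum of 10, HIST2H2AC, HIST1H2AM, HIST1H2BG, HIST1H2BN and HIST1H3E were no longer tested, since fewer genes pass it. HIST2H2AC was lower in every setting that tested it, with log2 fold changes from -2.48 to -1.37. HIST1H2AC, HIST1H2BK, HIST2H2BE, HIST1H2BD, HIST1H2BC and HIST1H2BG were called higher in every setting that tested them. For HIST2H2AC and HIST1H2BG, however, direction was tied to passing the filter, as stated above. Most settings used that same filter, so agreement among those settings is not separate support for these genes.

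The median of the H1 members (0.10, from 1 gene) was 0.18 with upper-quartile scaling, 0.34 with library totals, -0.06 with no filter, and 0.28 and 0.30 in limma after adding 1 and 0.1. That of H2A (0.56) was 0.97 with at least 10 counts, 0.79 with library totals, 0.52 and 0.88 in limma, and 0.30 to 0.73 without any one library, lowest without sh-KIF11 3. That of H2B (0.95) was 1.18 with library totals, 0.63 with no filter, 1.15 with at least 10 counts, 0.68 and 1.10 in limma, and 0.80 to 1.25 without any one library. That of H3 (0.62, from 2 genes) was -0.88 with no filter, -0.39 with at least 10 counts, 0.16 in limma after adding 1, and 0.47 to 0.90 without any one library. The filters change which genes enter these medians. Of the members with a longer annotated transcript, 5 were called higher with at least 10 counts, 5 by RefSeq span alone and 6 by bases after the stop codon alone, against 8. Of those with short transcripts only, 0 were called higher. This became 2 with library totals alone (HIST1H1C and HIST1H2AI), 3 in both limma fits (these and HIST1H2AE) and 2 with no filter (HIST4H4 and HIST1H2AK). The division by annotation thus did not hold for the higher calls in those 4 settings, nor under either of its rules alone.

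Scaling moved the lists, and library totals alone placed the median of all genes at 0.24. With library totals, 2 transcription factors were higher, 5 processing genes were higher, 4 decay genes were higher and 0 lower, 2 replication-independent histones were higher and 5 lower, and 2 S-phase genes were higher. Upper-quartile scaling gave 3 processing genes higher, 0 decay genes lower and 2 S-phase genes higher. Both limma fits gave 5 processing genes higher, 0 decay genes lower, and 2 replication-independent histones and 2 S-phase genes higher. With at least 10 counts, 3 processing genes were higher. Without any one library, 0 to 1 transcription factors were lower, 1 to 3 processing genes were higher and 1 to 2 decay genes were lower. H3F3A turned to 0.02 and PCNA to 0.09 with library totals, and PCNA to 0.04 in both limma fits. The cause of these shifts between tools was not tested.

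No pairing of the libraries by replicate number was seen. Deviations of same-numbered libraries of the groups correlated at 0.03, -0.0185 and -0.00253, and those of differently numbered ones at -0.0488 to 0.0528. With 3 libraries per group such values cannot exclude a pairing. With the replicate block, the same 8 HIST genes were higher and the same 2 lower, 3 processing genes were higher in place of 1, and no other count of calls moved. Depth limits the 56 members that were not tested and the genes with fewer than about 10 counts per library.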
